A study of Mus musculus with 4 samples.

Results

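*Cd3e*, *Cd3d*, *Cd3g*, *Cd2*, *Cd4*, *Cd8a*, *Cd79a*, *Cd79b* and *Ms4a1* are 9 genes used across immunology to recognise lymphocytes, and they were taken by name from the GENCODE annotation of the mouse genome (mm10), where they are 9 of 21755 protein-coding genes. They were examined in ATAC-Seq peaks of sorted heart nuclei, to see whether either sorted population carried accessible chromatin at the genes that T and B cells use. Nuclei came from whole hearts of male C57BL/6 mice of 8 to 12 weeks that carried both the NuTRAP reporter and a Cdh5-Cre transgene, so that every group shared both alleles. The reporter puts GFP on the nuclei of cells in which Cre, driven by the promoter of the endothelial cadherin *Cdh5*, has been active, and flow sorting gave 2 replicates of GFP+ (endothelial) and 2 replicates of GFP- (non-endothelial) nuclei, with 100 to 50000 nuclei per reaction. Neither population is a single cell type. GFP- nuclei are all that the gate left, and Cre driven by the *Cdh5* promoter is known to be active also in the hemogenic endothelium of the embryo, from which blood cells descend, so that the sort by itself does not say in which population a lymphocyte nucleus would lie.

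ATAC-Seq reads where the transposase Tn5 can cut, so a peak marks DNA that was open in some of the nuclei sorted, in a share not measured here. T cells recognise antigen with a receptor whose signal passes through the CD3 chains, with CD4 or CD8 as co-receptor, and B cells use surface immunoglobulin with the CD79 chains. The promoters and nearby enhancers of these genes are open in the lymphocytes that use them and closed in most other cells, and a healthy heart holds few lymphocytes beside its cardiomyocytes, endothelial cells and fibroblasts.

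Each population had 1 deposited peak list, called from its 2 replicates together, with 78912 peaks in GFP- and 65008 in GFP+. The lists hold no values per replicate and no read depth, so no difference between them has a replicate check, no test was possible and none of the values below carries an error. Each peak was given a rank from 0 to 100 by the area its caller recorded, within its own list, where 100 is the largest. A list holds a peak only above the caller's minimum area (the lowest was 200 in each list), and a stretch without a peak may still have been open in a few nuclei. In such bulk data, few nuclei of a type and weak opening in each nucleus cannot be told apart.

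None of the 9 genes had a TSS peak, a peak within 250 bp of the 5′ end of its gene record, in the GFP- list, and none had one in the GFP+ list. Over all protein-coding genes a TSS peak was present for 56.9% in GFP- and for 54.8% in GFP+, and 42.1% had none in either list. These shares are not a fair yardstick for lymphocyte genes, because starts with few CpG dinucleotides were less often open in both lists. The 501 bp around the 9 starts held between 3 and 15 CpG, with a median of 10, against a median of 24 over all protein-coding genes. Among the 9023 genes with at most 15 CpG, 15.9% had a TSS peak in GFP- and 13.8% in GFP+. *Cd79b* held 3 CpG, *Cd3d*, *Cd3g* and *Ms4a1* held 4 each, and genes with 2 to 4 CpG had a TSS peak in 5.30% of cases in GFP- and in 4.62% in GFP+. *Cd8a* held 10, *Cd2* 11, *Cd3e* 12, *Cd4* 13 and *Cd79a* 15, and genes with 10 to 19 CpG had one in 44.0% and 39.4%. Against the genes with at most 15 CpG, 0 of 9 lies nearer to the background than it does against all genes. For the 5 genes in the group of 10 to 19 CpG, however, the shares of that group were closer to those of all genes. The 0 of 9 is given here as a count only.

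**Figure D1:**
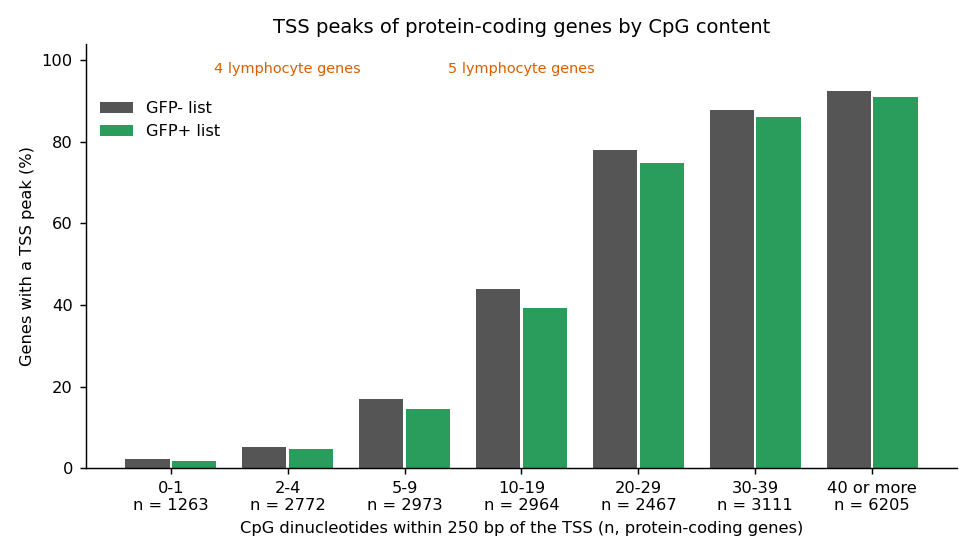
Percent of protein-coding genes with a peak within 250 bp of the TSS in the GFP- (grey) and GFP+ (green) list, grouped by the number of CpG dinucleotides in the same window, with the number of genes under each group. The bars climb from 2.30% and 1.74% in the lowest group to 92.5% and 91.1% in the highest, and the orange text shows that 4 of the lymphocyte genes lie in the group of 2 to 4 CpG and 5 in that of 10 to 19.

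RefSeq promoters (GRCm38) matched 5 of the 9 genes (*Cd3e*, *Cd3d*, *Cd3g*, *Cd8a* and *Cd79a*). Those of *Cd3e*, the CD3 epsilon chain (chr9:45009612-45009861, minus strand), and *Cd8a*, the CD8 alpha chain (chr6:71373177-71373426, plus strand), are printed 5′ to 3′ as the 250 bases before the RefSeq start, as examples of regions that overlapped no peak in either list, 1 with CpG and 1 without. Capitals mark the letters AGGAAG on either strand, a core of sites for ETS factors, which both lymphocytes and endothelial cells use.

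Cd3e promoter: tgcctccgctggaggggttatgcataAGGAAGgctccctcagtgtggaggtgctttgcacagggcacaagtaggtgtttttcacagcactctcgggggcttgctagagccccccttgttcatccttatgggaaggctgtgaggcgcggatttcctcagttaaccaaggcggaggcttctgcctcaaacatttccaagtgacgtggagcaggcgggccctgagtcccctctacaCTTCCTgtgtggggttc

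Cd8a promoter: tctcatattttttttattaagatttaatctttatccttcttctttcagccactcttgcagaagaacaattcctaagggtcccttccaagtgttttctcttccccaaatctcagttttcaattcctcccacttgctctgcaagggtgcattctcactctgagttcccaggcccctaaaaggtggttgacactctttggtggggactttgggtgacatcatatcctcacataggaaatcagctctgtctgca

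The *Cd3e* promoter held 7 CpG and 2 matches to the ETS letters, the *Cd8a* promoter held 0 CpG and none, and the median over 32851 RefSeq promoters was 6 CpG. The ETS letters occurred in 29.5% of all these promoters, so their presence or absence here is a description of sequence and no more.

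The nearest peak lay far from most of the starts. The distance from the TSS to the nearest summit had a median of 13.4 kb over the 9 genes in each list, against 0.396 kb in GFP- and 0.465 kb in GFP+ over all protein-coding genes. *Cd4* was the closest, at 1.59 kb in GFP- and 1.69 kb in GFP+, and *Cd2* followed at 4.82 and 3.39 kb. *Cd79a* lay at 5.60 and 6.76 kb and *Cd79b* at 11.3 and 11.2 kb. The CD3 genes lay between 13.4 and 16.1 kb, *Cd8a* at 41.4 kb in both lists, and *Ms4a1* at 26.8 kb in GFP- and at 145 kb in GFP+. The order of the genes was therefore nearly the same in both lists, with *Ms4a1* the one whose distances differed most. Every one of the 9 was farther from a peak than most genes (from 58.3% for *Cd4* in GFP+ to 89.4% for *Ms4a1* in GFP+).

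**Figure D2:**
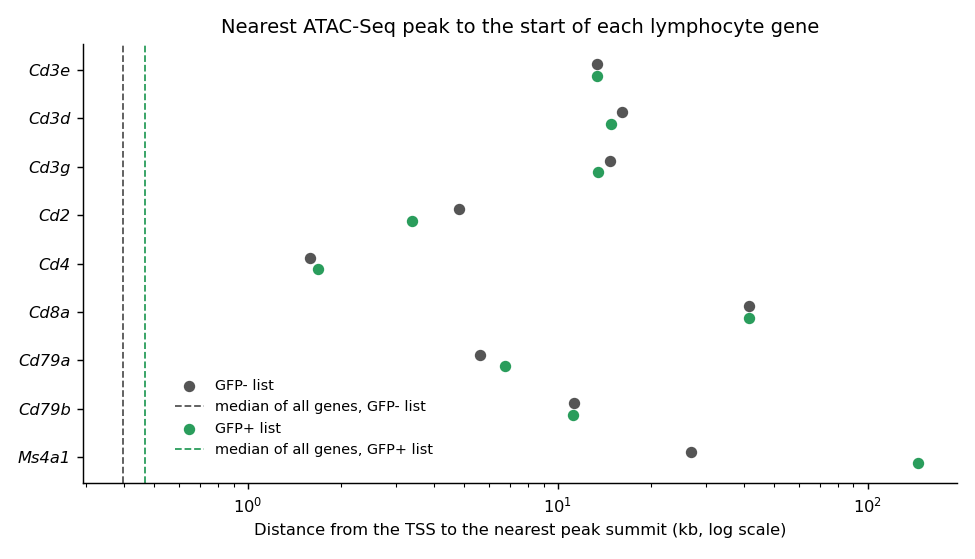
Distance in kb (log scale) from the TSS of each lymphocyte gene to the nearest peak summit in the GFP- (grey) and GFP+ (green) list, with dashed lines at the median over all protein-coding genes, 0.396 kb in GFP- and 0.465 kb in GFP+. All points lie to the right of both lines, and *Ms4a1* is the only gene whose points are far apart.

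The GENCODE records of the 9 genes hold 26 different transcript starts, and 1 of them overlapped a peak within 250 bp, in both lists. A peak at any transcript start was thus found for 1 of 9 genes, against 61.8% of all protein-coding genes in GFP- and 59.8% in GFP+. That gene was *Cd2*, an adhesion receptor of T cells and NK cells (chromosome 3, 101275899 to 101287939, minus strand). The start belongs to a retained-intron transcript that begins at 101280389 inside the gene, and the peak over it is the intron peak described next.

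An intron peak, with its summit inside the gene and outside its exons, was present for 2 of 9 genes in GFP- (*Cd2* and *Cd4*) and for 1 of 9 in GFP+ (*Cd2*). The shares over all protein-coding genes were 40.6% and 38.2%, and over the 9976 genes within the length range of these 9 genes they were 24.6% and 23.2%, so that 2 and 1 of 9 are near the background. The *Cd2* peak lay in intron 3 of the 4 introns of the first transcript in the record, ran over 1216 bp in GFP- (101280323 to 101281538, rank 90.2) and over 1282 bp in GFP+ (101280291 to 101281572, rank 81.9), and its summits were 2 bp apart by their distance from the TSS, at 6883 and 6881 bp. Its rank in GFP+ depended on the measure, and was 72.3 by the p-value of the summit and 55.9 by area per bp, against 84.5 and 87.8 in GFP-. The *Cd4* peak lay in intron 1 of the 9 introns of its first transcript (chromosome 6, 124885185 to 124885571), 2861 bp from the TSS, had 387 bp and rank 53.6 in GFP-, and overlapped no GFP+ peak. *Cd4* encodes the co-receptor for class II MHC and its first intron is known to hold a silencer used by T cells. Whether the peak lies on that element was not examined. The 201 bp around these summits are printed on the strand of the gene (GRCm38), chr3:101280956-101281156 and chr6:124885260-124885460, because they are the peaks found within the lymphocyte genes. Capitals mark AGGAAG for ETS and CCCNNGGGA for EBF, a factor of B cells and mesenchymal cells, on either strand.

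Cd2 intron 3, GFP- summit: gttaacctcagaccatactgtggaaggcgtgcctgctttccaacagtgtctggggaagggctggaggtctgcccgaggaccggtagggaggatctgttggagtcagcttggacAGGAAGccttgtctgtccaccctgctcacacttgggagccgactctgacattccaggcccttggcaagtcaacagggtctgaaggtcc

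Cd4 intron 1, GFP- summit: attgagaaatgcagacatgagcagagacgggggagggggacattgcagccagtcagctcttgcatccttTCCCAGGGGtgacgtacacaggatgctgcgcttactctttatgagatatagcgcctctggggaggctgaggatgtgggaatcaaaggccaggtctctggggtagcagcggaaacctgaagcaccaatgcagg

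The *Cd2* window held the ETS letters at 1 place, as did 26.8% of GFP- and 28.8% of GFP+ peaks, and the *Cd4* window held the EBF letters at 1 place, as did 5.74% and 4.88%.

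In the 50 kb to each side of the genes, 9 of 9 had a peak in GFP- and 8 of 9 in GFP+, where *Ms4a1* had none. This is also the usual case, since 83.5% and 81.8% of all protein-coding genes had at least 1 such flank peak. The flanks of *Cd3e*, *Cd3d* and *Cd3g* overlap and their peaks are counted once. There were then 43 flank peaks in GFP- and 40 in GFP+, of which 17 in each list lay at an annotated transcript start (summit within 1000 bp) and 26 in GFP- and 23 in GFP+ lay away from starts. The peaks at starts had a median rank of 89.6 in GFP- and 85.6 in GFP+, and those away from starts 58.2 and 55.6. None of the peaks at starts was nearest to the start of a lymphocyte gene of the 9. Of 25 other protein-coding genes with their TSS in these flanks, 12 (48%) had a TSS peak in each list, with a median rank of 91.4 in GFP- and 89.5 in GFP+. Over all protein-coding genes the shares were 56.9% and 54.8%, and the median ranks 90.5 and 89.3. *Usp5* and another of these neighbours were both counted with the same peak. By median rank, the flank peaks at starts stood above those away from starts in each list.

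**Figure D3:**
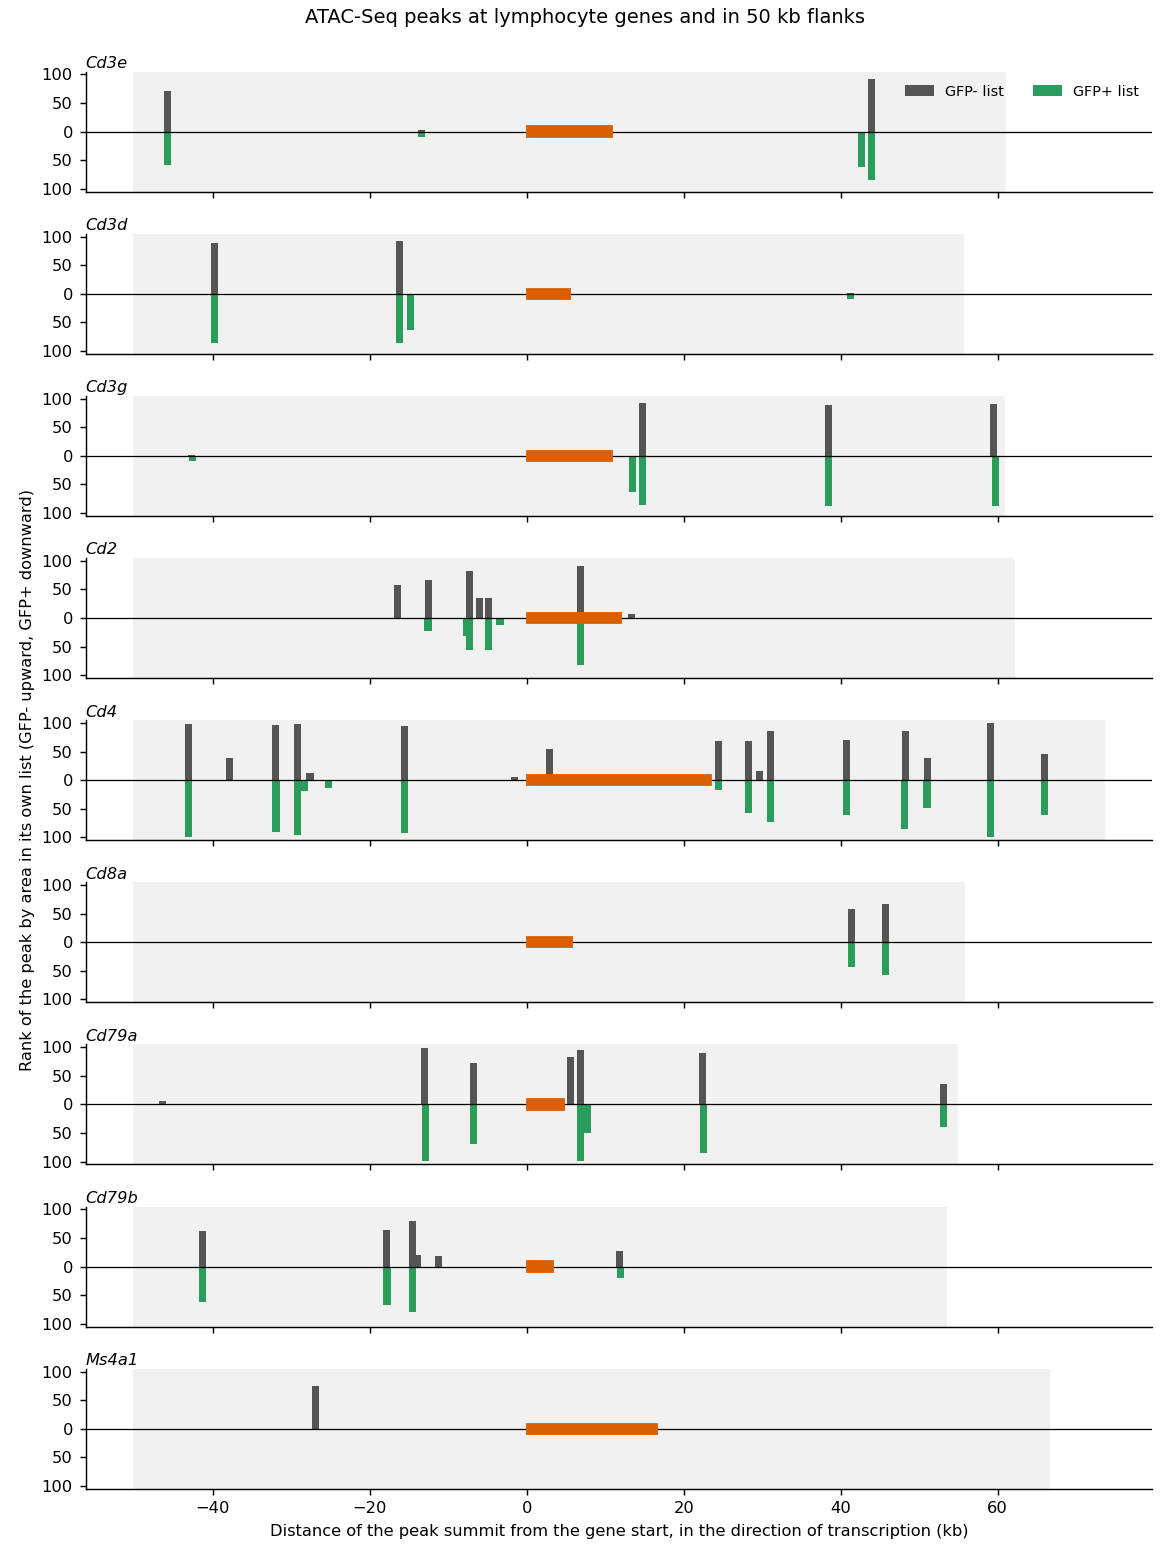
Peaks at the 9 lymphocyte genes and in their 50 kb flanks (light background), placed by the distance of the summit from the TSS in kb along the direction of transcription, with the gene as an orange block. Grey bars upward give the rank by area (0 to 100) in the GFP- list and green bars downward the rank in the GFP+ list. Most grey bars stand over a green bar, no bar stands at a gene's start, and *Ms4a1* has 1 GFP- bar and no GFP+ bar.

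The CD3 genes encode the gamma, delta and epsilon chains that carry the signal of the T cell receptor, and they lie side by side on chromosome 9 (*Cd3g*, 44969572 to 44980431, minus strand; *Cd3d*, 44981786 to 44987339, plus strand; *Cd3e*, 44998740 to 45009627, minus strand). All 3 genes fell whole into a single stretch of 55.8 kb without any peak in either list, from 44967124 to 45022905 in GFP- and to 45022900 in GFP+. Of all protein-coding genes, 28.6% in GFP- and 31.3% in GFP+ had their TSS in a longer stretch. At its upper edge, 13.4 kb upstream of *Cd3e*, stood a small peak of 170 bp at rank 1.92 in GFP-, and 182 bp at rank 9.16 in GFP+. At its lower edge in GFP- stood the peak over the start of *Ube4a*, a ubiquitin chain factor, at rank 92.6. In GFP+ the peak at the edge ranked 62.7, with its summit 1347 bp from that start. The GFP+ peak at the *Ube4a* start itself lay just beyond and ranked 85.6. The peaks beyond were at *Atp5l*, a subunit of the mitochondrial ATP synthase (90.3 and 87.9), inside *Ube4a* (88.5 and 86.9) and at *Mpzl3* (70.6 and 57.9). All flank peaks of the CD3 genes overlapped a peak of the other list.

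*Cd8a* (chromosome 6, 71373427 to 71379173, plus strand) encodes the co-receptor for class I MHC. It stood in a stretch of 142 kb without a peak in GFP- and of 121 kb in GFP+, and 19.97% and 23.4% of all protein-coding genes had their TSS in a longer one. The stretch also held the record starts of *Cd8b1*, the gene of its partner chain, and of *Smyd1*, a gene of heart and skeletal muscle, which had a peak at another of its transcript starts (rank 83.9 in GFP- and 83.8 in GFP+). Its flanks held 2 peaks in each list, both inside *Rmnd5a*, a subunit of a ubiquitin ligase, at rank 57.8 in GFP- and 42.6 in GFP+ for the nearer and at 67.1 and 57.3 for the farther.

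*Cd4* (124864692 to 124888221, minus strand) lies in a gene-dense stretch, with 16 flank peaks in GFP- and 15 in GFP+. Its highest-ranked peaks at starts were those of *Usp5*, a deubiquitinase (99.7 in both lists), *Mlf2* (99.1 in GFP- and 99.2 in GFP+), the antisense gene *A230083G16Rik* within *Ptms* (98.4 and 96.7) and *Ptms* itself, a thymosin-related protein (96.5 and 91.1). The peak nearest to the *Cd4* TSS, 1586 bp upstream in GFP- and 1687 bp in GFP+, was among the smallest of each list, at rank 5.42 and 0.755. A large peak away from any start lay 15603 bp upstream of *Cd4*, with its summit at the same base in both lists. It had 1907 bp and rank 95.5 in GFP- and 1424 bp and rank 92.8 in GFP+, the highest rank of any flank peak away from a start in each list. The nearest annotated start, 6227 bp away, was that of *Lag3*, an inhibitory receptor of T cells, which had no TSS peak in either list. The 201 bp around this summit are printed on the strand of *Cd4* (chr6:124903724-124903924, GRCm38), with the letters TGTGGT, a core of RUNX sites, in capitals where they occur on either strand. They were found in 13.2% of GFP- and 12.7% of GFP+ peaks.

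Cd4 upstream peak: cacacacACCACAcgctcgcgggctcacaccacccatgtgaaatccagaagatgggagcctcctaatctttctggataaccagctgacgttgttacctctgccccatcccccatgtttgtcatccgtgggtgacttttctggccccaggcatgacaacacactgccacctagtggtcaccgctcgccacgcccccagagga

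*Cd2* stood next to a group of peaks that lay away from any start. Beside the intron peak, 5 peaks of GFP- and 6 of GFP+ lay within 17 kb upstream of its start. The nearest overlapping pair, 4818 bp upstream in GFP- and 4864 bp in GFP+, ranked 35.2 and 55.6. At 7306 bp upstream the rank was 83.1 in GFP-, where a single peak of 1115 bp overlapped 2 GFP+ peaks of rank 55.5 and 31.3. Farther upstream, the ranks were 67.0 in GFP- (12521 bp from the TSS) against 22.7 in GFP+ (12560 bp), and 58.5 (16403 bp) against 2.20 (16421 bp). GFP- thus ranked higher by area at the 3 farther sites and GFP+ at the nearest. By area per bp, the ranks at 12521 and 12560 bp came to 44.1 and 43.3. GFP- alone had a peak 5975 bp upstream (rank 35.4) and 1 downstream of the gene (rank 7.12), and GFP+ alone had one 3386 bp upstream (rank 13.1).

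*Cd79a* and *Cd79b* encode the signalling chains of the B cell receptor. *Cd79a* (chromosome 7, 24897381 to 24902197, plus strand) stood in a peak-free stretch of 11.6 kb in GFP- and 11.5 kb in GFP+, between 2 widely used genes. Upstream, the start of *Rps19*, a ribosomal protein gene, ranked 99.4 in GFP- and 99.3 in GFP+, with a further peak between it and *Cd79a* at 72.3 and 69.3. Downstream, at *Arhgef1*, 2 GFP- peaks of rank 82.8 and 94.9 faced a GFP+ peak of 2439 bp at rank 98.1. *Cd79b* (chromosome 11, 106311341 to 106314762, minus strand) stood in a stretch of 22.9 kb without a peak in GFP- and 22.5 kb in GFP+. Upstream of it, the sodium channel gene *Scn4a* held peaks at rank 79.1 and 63.7 in GFP- and at 80.0 and 66.7 in GFP+, and a small peak nearer to *Cd79b* at rank 18.6 and 0.672. A peak upstream of *Scn4a* ranked 61.7 in GFP- and 61.1 in GFP+, and on the other side a peak about 1 kb from the growth hormone gene *Gh* ranked 27.9 and 20.3. A GFP- peak of rank 19.6 in *Scn4a* had no GFP+ counterpart.

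*Ms4a1* (chromosome 19, 11249675 to 11266241, minus strand) encodes the B cell surface protein CD20. It lay in a stretch of 171 kb without a peak in GFP-, and of 490.2 kb in GFP+, which held the TSS of 16 protein-coding genes, most of them other members of the *Ms4a* family. Its only flank peak was found in GFP-, from 11292822 to 11293856, 26835 bp upstream and 9203 bp from the start of *Ms4a5*, at rank 74.7 by area, 56.9 by the p-value of the summit and 47.4 by area per bp. By area it was the highest-ranked peak of all regions examined that was absent from the other list, but by area per bp others without a partner ranked higher, among them the *Cd4* intron peak (63.7). The 201 bp around its summit (chr19:11292976-11293176, GRCm38, strand of *Ms4a1*) held none of the ETS, EBF and RUNX letters.

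Ms4a1 upstream peak: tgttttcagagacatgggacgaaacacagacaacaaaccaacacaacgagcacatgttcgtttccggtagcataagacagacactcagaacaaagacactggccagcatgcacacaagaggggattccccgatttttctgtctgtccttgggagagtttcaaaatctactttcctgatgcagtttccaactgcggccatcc

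Within the genes and flanks together, 36 of 45 GFP- peaks (80%) shared 1 bp or more with a GFP+ peak, and 39 of 41 GFP+ peaks (95.1%) did so with a GFP- peak. Over the whole lists the shares were 69.7% and 86.6%. The 9 GFP- peaks without a partner ranked from 6.36 to 74.7 and the 2 GFP+ peaks without one ranked 13.1 and 14.0. The requirement for a shared peak set part of these shares, since 62.2% of the GFP- and 68.3% of the GFP+ peaks overlapped when 50% of both peaks had to be covered.

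Other genes of lymphocytes were compared in 3 lists of 15 T cell, 15 B cell and 10 NK and cytotoxic genes. In 36 of these 40 genes neither list had a TSS peak, as in the 9 genes, against 42.1% of all protein-coding genes. The T cell list had 1 TSS peak in GFP- and 2 in GFP+. *Tcf7*, a transcription factor of T cells that also acts in Wnt signalling elsewhere, carried one in each list (rank 79.3 in GFP- and 81.2 in GFP+), and *Cd28*, a co-stimulatory receptor, had one in GFP+ alone, at rank 64.0. The B cell list had 2 in GFP- and 0 in GFP+, which were *Cr2*, a complement receptor, at rank 21.5 and *Blnk*, an adaptor of B cell receptor signalling, at rank 64.9. The NK and cytotoxic list had 0 in both. As for the 9 genes, most of these starts were poor in CpG (36 of 40 with at most 15). Of those 36 CpG-poor starts, 1 had a TSS peak in GFP- and 1 in GFP+. Over all protein-coding genes with at most 15 CpG the shares were 15.9% and 13.8%. Counting any transcript start added *Lck*, the kinase at the T cell receptor (80.3 in GFP- and 73.6 in GFP+), *Cd6*, a T cell surface receptor (2.32 and 10.2), *Pax5*, the factor of B cell identity (67.8 and 73.4), *Cd37*, a tetraspanin (75.8 and 56.2), *Cd22*, an inhibitory B cell receptor (19.2 in GFP+ alone) and *Eomes*, a T-box factor of NK cells (17.5 and 40.5). With these, 3 of 15 T cell, 4 of 15 B cell and 1 of 10 NK and cytotoxic genes had a peak at a start in GFP-. In GFP+ the counts were 4, 3 and 1. Over all protein-coding genes the shares at any start were 61.8% in GFP- and 59.8% in GFP+. None of the 21 constant genes of the T cell receptor and immunoglobulin loci had a peak at a start in either list.

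Lists for other cell types of the heart are set beside these counts. Of 10 genes each, a TSS peak was present in GFP- and GFP+ for 10 and 10 cardiomyocyte genes, 6 and 9 endothelial genes and 7 and 0 fibroblast genes. The study attributes open chromatin at cardiomyocyte genes in GFP+ to the endothelial cells, and reports no overlap of GFP with a cardiomyocyte nuclear marker. The share of a marker list with peaks therefore does not by itself name the nuclei present. Several genes of these lists also appear in the study's own tracks from these data, so their state was known in advance. The endothelial genes found in GFP+ alone were *Egfl7* (rank 93.0), *Emcn* (61.7) and *Cldn5* (87.9), and the fibroblast genes in GFP- alone were *Col1a1* (95.6), *Tcf21* (83.8), *Col1a2* (78.3), *Pdgfra* (70.1), *Dcn* (66.1), *Dpt* (51.5) and *Col3a1* (45.1). Of these, *Egfl7* in GFP- (72.6) and *Pdgfra* (87.0) and *Col1a1* (80.7) in GFP+ had a peak at another transcript start. Genes of blood cells in general were closer to the lymphocyte genes. The pan-leukocyte list had 1 of 10 in each list, *Lcp1*, an actin bundling protein (75.8 and 81.6), while *Ptprc*, which encodes CD45, had none. At any transcript start it had 3 of 10 in each list, against 61.8% and 59.8% of all protein-coding genes. The genes added were *Coro1a* (55.7 in GFP- and 42.2 in GFP+) and *Ikzf1* (56.4 and 47.5). The list of macrophages, which are a regular minor population of the heart, had 2 of 10 in GFP- and 1 of 10 in GFP+, with *Cd68* at rank 31.8 and 16.8 and *C1qb*, a complement subunit, at 19.5 in GFP- alone. Genes of organs other than the heart had 1 of 10 in each, *Gfap* (60.0 and 48.5), and 1135 olfactory receptor genes had 0.529% in GFP- and 0.176% in GFP+. At any transcript start the list of other organs had 2 of 10 in GFP-, with *Ins2* (73.0) added, and 1 of 10 in GFP+. In GFP- this 20% equalled the share of the T cell list. The T cell, B cell and NK lists, with 0 to 13.3% of their genes, lay below the cardiomyocyte and endothelial lists in both peak lists and below the fibroblast list in GFP- alone. The CpG content of the starts was not compared between these lists, so this order is not adjusted for it. At the 5′ ends of the 9 gene records, neither list held a peak by which that population could be said to hold T or B cell nuclei, and the peak at the internal *Cd2* start was in both lists. Since a list shows only peaks above its minimum, a small share of lymphocyte nuclei in either population remained possible and was not measured.

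**Figure D4:**
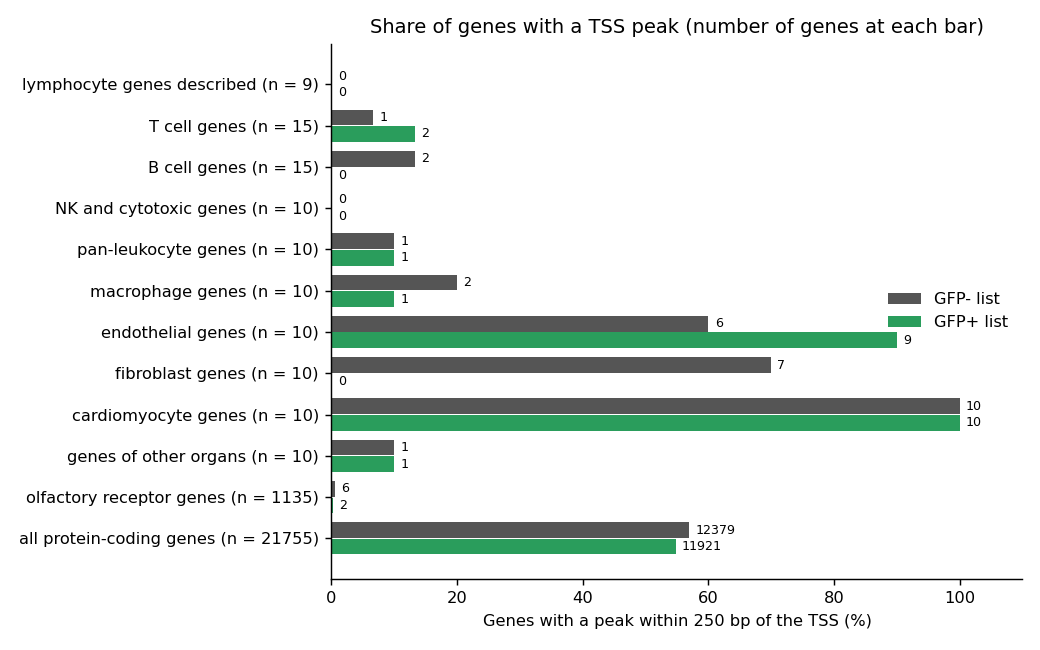
Percent of the genes of each list with a peak within 250 bp of the TSS in the GFP- (grey) and GFP+ (green) peak list, with the number of such genes at each bar and the size of each list beside its name. The 9 lymphocyte genes have 0 in both lists, cardiomyocyte genes have 10 of 10 in both, fibroblast genes have 7 in GFP- and 0 in GFP+, and all protein-coding genes have 56.9% and 54.8%.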

How the data were processed

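ATAC-Seq was performed on GFP+ and GFP- nuclei sorted from mouse hearts, with samples assigned to populations from their labels. Per the labels and the study's methods, reads were trimmed by the authors (fastp), aligned to mm10 (Bowtie2, 2.3.5.1 in the submitters' processing notes), filtered for quality (SAMtools), freed of duplicates (Picard) and downsampled. Genrich then called peaks from cut-site intervals, without chrM, chrY and blacklisted regions, so that both replicates of a population entered 1 list. Of the deposited columns, the area is the caller's signal added up along the peak, the score is a capped scaling of it by the authors' caller, and the -log10 p-value belongs to the summit. The lists differ in length although the libraries were downsampled, which is why ranks within a list were used. Read depth is not analysed here.

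Computed here were percentile ranks of area within each list, overlaps (at least 1 bp), and positions against GENCODE M21 and GRCm38.p6. A TSS peak overlaps the 5′ end of a gene record by up to 250 bp to either side, an intron peak has its summit inside the gene but outside its exons, a flank peak has it within 50 kb outside the gene, and a summit within 1000 bp of any transcript start counts as at a start. Genes on chrY and chrM were left out. The analysis used Python 3.11.15, numpy 2.4.6, pandas 2.3.3, pysam 0.24.0 and matplotlib 3.10.9. The lookups were tested on 1500 simulated peaks, with 0 errors in 1000 lookups of a start window, 1000 of the summits in a region, 1500 of the nearest start and 1500 of overlaps with a simulated other list at each overlap limit. Alternatives changed the window, the flank, the overlap, the area threshold, the ranking measure and the distance from starts.

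The members and the marker lists were chosen with earlier results of these data known. All 9 members are named. From the other lists, every gene with a TSS peak in 1 list alone is named, and from the T cell, B cell and NK lists every gene with a TSS peak in either. Up to 3 neighbours per member were to be named, those whose starts carry the highest-ranked flank peaks. *A230083G16Rik*, *Lag3*, *Ms4a5*, *Scn4a*, *Gh*, *Rmnd5a*, *Cd8b1* and *Smyd1* fall outside this rule and were named after values were seen, to say where a peak or a peak-free stretch lies. *Lcp1*, *Cd68* and *Gfap*, with a TSS peak in both lists, and *Ptprc*, with none, also fall outside the naming rules. The CpG and length subsets, the peak-free stretches, the letter motifs, the olfactory receptor genes, the receptor constant genes and the genes named for a peak at another start were chosen after values were seen.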

Additional observations from a re-analysis of the deposited data

How the results depend on the processing

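The counts of members with a TSS peak (0 in each list), with a peak at any transcript start (1 in each) and with an intron peak (2 in GFP- and 1 in GFP+) were unchanged under every alternative run for them. Of 48 alternatives, 34 left the value within 1.5 times of the reported one, or within its interval for shares, and 14 did not. That interval was a 95% binomial interval over peaks, with each peak taken as independent. It served only to sort the alternatives and gives no spread between replicates. With a TSS window of 1000 bp, the genes of the T cell and B cell lists with a TSS peak rose from 3 to 6 in GFP- and from 2 to 3 in GFP+. The share over all protein-coding genes at that window is not given here, so this rise is a count only. Flank peaks changed with the area searched and the area threshold, as their construction implies. In GFP- they numbered 43, and 26 with flanks of 25 kb, 76 with 100 kb and 28 for peaks in the upper 50% of the list by area, and those away from starts numbered 26, and 17, 45 and 14. In GFP+ the flank peaks numbered 40, and 25, 72 and 25, and those away from starts 23, and 39 with 100 kb and 13 in the upper 50%. With 50% of both peaks required, the share overlapping the other list fell from 80% to 62.2% in GFP- and from 95.1% to 68.3% in GFP+. Ranks of the regions' peaks moved by -19.9 to 13.5 points in GFP- and -20.4 to 15.3 in GFP+ when ranked by the summit's p-value, and by -27.7 to 35.1 and -40.5 to 40.5 by area per bp. No paired analysis was possible because each list pools both replicates, and for the same reason no replicate could be left out.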
